A study of Mus musculus with 6 samples.

Results

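The 10 genes described here encode proteins that build centrioles or organise the material around them: Plk4, Stil, Sass6, Cenpj, Rttn and Cep135 for centriole assembly, and Cep152, Cep63, Cep192 and Pcnt for the scaffold and pericentriolar matrix. They were taken by symbol from the 53656 gene symbols of the deposited expression table, and all 10 were found and tested. Hand-dissected mouse oocytes gave 3 RNA-seq libraries from Khdc3-null (KO) ovaries and 3 from wild-type (WT) ovaries. Both groups are oocytes, differing by label in genotype alone. Strain, age, oocyte stage, the number of oocytes in a library and whether libraries came from separate animals are not given in the labels, and p-values therefore cover the spread between these 6 libraries, which may be technical. The design compared the transcriptomes of KO and WT oocytes, and the question here is which of the 10 genes stayed expressed and which differed between genotypes.

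A centriole is a barrel of microtubules that normally sits at the core of the centrosome. A kinase, Plk4, starts the assembly of each new centriole, Stil and Sass6 form the cartwheel on which it grows, Cenpj and Rttn act in its elongation, and Cep152, Cep63 and Cep192 form the platform that brings Plk4 to the parent. Mouse oocytes eliminate their centrioles early in oogenesis and assemble the meiotic spindle from acentriolar microtubule-organising centres, which contain Pcnt and Cep192. The granulosa cells around the oocyte keep centrioles.

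All 10 genes were expressed at 1 RPKM (reads relative to gene length in kilobases and to library size) or more in all 6 libraries, although oocytes lack centrioles. The levels ran from 1.68 RPKM to 34.3 RPKM over genes and libraries, and the fewest reads behind a value were 382. In KO oocytes 1 of the 10 changed, Rttn, which fell to 3.10 ± 0.453 RPKM, against 20.2 ± 2.79 RPKM in WT oocytes (SD, n = 3 each). The other 9 were not called at an adjusted p of 0.05 (limma over 12272 tested genes, adjusted by the Benjamini-Hochberg method, with adjusted p of 0.32 to 0.99). Over all tested genes 2.74% were called, with 1.14% called lower and 1.6% called higher in KO, beside 1 and 0 of the 10 genes. The median log2 change of the 10 genes was -0.01, beside 0.014 for all tested genes.

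**Figure D1:**
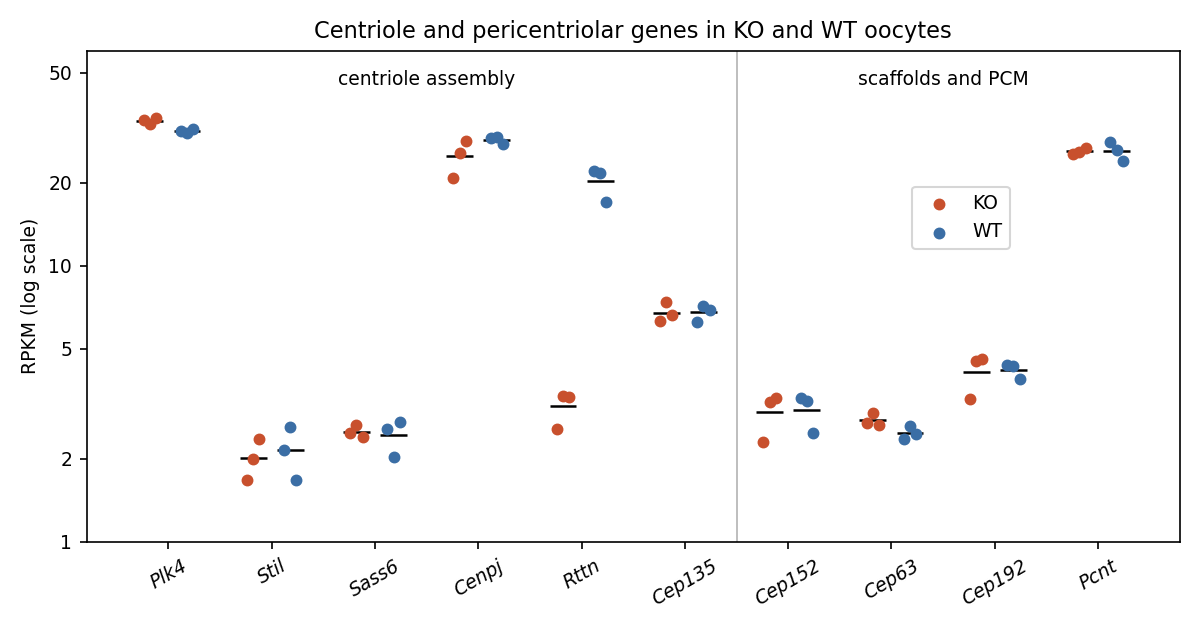
Level of each gene in RPKM on a log axis, with 1 point per library, KO left of WT, and a bar at the mean of 3 libraries. Rttn was at 2.57 to 3.37 RPKM in the KO libraries and at 17.04 to 22.1 RPKM in the WT libraries, while 7 of the other 9 genes had overlapping ranges and Plk4 and Cep63 were slightly higher in KO.

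The 6 libraries held 34640170 to 43343444 reads, as recovered from the RPKM values. Khdc3, the targeted gene, stood at 0.113 to 0.224 RPKM in KO and at 423 to 502 RPKM in WT, so its level matched the label in all 6 libraries. The second principal component (18.1% of the variance) set KO replicate 1 off from KO replicates 2 and 3, and KO replicate 1 was the lowest of 6 libraries for 4 of the 10 genes. The 15 oocyte markers summed to 13900 to 14260 RPKM in KO and 14190 to 15370 RPKM in WT. The lowest of them, Sohlh1, was at 0.889 to 1.75 RPKM in KO and 1.34 to 3.46 RPKM in WT. The 18 granulosa and cumulus markers summed to 312 to 417 RPKM in KO and 138 to 264 RPKM in WT, and 1 of 13 tested was called higher. None of the 18 was at 0 in all libraries, although Ptx3 was at 0 in all but WT replicate 1 (0.0861 RPKM). Stromal markers summed to 30.8 to 40.8 RPKM in KO and 23.4 to 31.4 RPKM in WT, with 1 of 7 tested called higher. Leukocyte markers, none called, summed to 5.94 to 7.40 RPKM in KO and 2.57 to 4.99 RPKM in WT. Single genes weighed heavily in these sums. Inha was at 227 to 310 RPKM in KO and 104 to 203 RPKM in WT. Myh11 was lower in KO (mean 13.35 RPKM, against 15.7 RPKM in WT), and the other tested stromal markers had higher KO means. H2-Aa was at 3.89 to 5.31 RPKM in KO and 0.644 to 2.85 RPKM in WT. Of the 5 leukocyte markers, 3 were under 1 RPKM in all 6 libraries. The part of these cells in the levels below was not tested, and in bulk RNA fewer cells of a type and less RNA per cell cannot be told apart.

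Rttn encodes rotatin, a large protein needed in human cells for centrioles to reach full length. The gene (ENSMUSG00000023066.10, protein coding) lies on chromosome 18 at 88971790 to 89131016, plus strand, GRCm38. Its level was 2.57, 3.37 and 3.35 RPKM in KO replicates 1, 2 and 3, against 22.1, 21.6 and 17.04 RPKM in WT replicates 1, 2 and 3. The groups were far apart, and the highest KO library lay well under the lowest WT library. These levels correspond to 734, 989 and 1054 reads in KO and to 5566, 6379 and 5005 reads in WT, so the KO transcript was lower and still detected in every library. The KO mean was 15.3% of the WT mean. The log2 change of RPKM + 1 was -2.37 ± 0.13 (SE; limma, adjusted p = 6.9e-05), with a 95% interval of -2.67 to -2.08. An exact permutation test, two-sided, returned p = 0.1, which is the floor for 3 against 3 libraries. Only 8 of 12272 tested genes, Khdc3 among them, had a larger fall on this scale. Without KO replicate 1, which held the lowest value, the change was -2.28 (adjusted p = 0.00036).

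The other 5 assembly genes were present at very different levels. Plk4, the kinase that starts centriole duplication and that also acts in acentriolar spindle assembly in mouse, was the highest of the 10 genes, with 33.6, 32.7 and 34.3 RPKM in KO replicates 1, 2 and 3, against 30.8, 30.1 and 31.3 RPKM in WT. All KO values were above all WT values, but by little: the log2 change was 0.12 ± 0.06 (SE; limma, adjusted p = 0.32), with a 95% interval of -0.02 to 0.26. The gene lies on chromosome 3 at 40800019 to 40816883, plus strand. Cenpj, also known as Cpap, binds tubulin and controls how centriole microtubules grow. It stood at 20.8, 25.5 and 28.3 RPKM in KO and at 29.0, 29.3 and 27.6 RPKM in WT (chromosome 14, 56526761 to 56575425, minus strand). The groups overlapped, with KO replicate 1 lowest, and the change of -0.20 ± 0.11 on the log2 scale (SE; adjusted p = 0.34; 95% interval -0.45 to 0.04) was -0.09 without that library and -0.30 without KO replicate 3 (adjusted p = 0.24).

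Stil and Sass6, the cartwheel pair, were the lowest assembly genes. Stil, which joins Plk4 to Sass6, was at 1.68, 2.00 and 2.37 RPKM in KO and at 2.15, 2.6 and 1.68 RPKM in WT, with KO and WT values interleaved (chromosome 4, 115000159 to 115043196, plus strand; log2 change -0.06, 95% interval -0.38 to 0.27). Sass6, which forms the spokes that set the symmetry of the centriole, was at 2.47, 2.66 and 2.40 RPKM in KO and at 2.57, 2.04 and 2.71 RPKM in WT (chromosome 3, 116594982 to 116631004, plus strand; log2 change 0.03, 95% interval -0.22 to 0.29). Again no genotype stood higher. These levels rested on 382 to 613 reads for Stil and 507 to 671 for Sass6. In GENCODE M21, Sass6 shares 389 exon bases with Trmt13 and 1502 with the antisense gene Gm42893, both on the opposite strand, and since the strand setting of the counting is not given, its reads are less certain.

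Cep135, a protein of the cartwheel that links it to the centriole wall, stood between these levels. It was at 6.29, 7.37 and 6.62 RPKM in KO and at 6.27, 7.16 and 6.93 RPKM in WT (chromosome 5, 76588698 to 76646466, plus strand). The ranges nearly coincided, and the log2 change was -0.01 ± 0.09 (SE; adjusted p = 0.98). Its 95% interval, -0.22 to 0.21, covers folds of 0.860 to 1.15 on the RPKM + 1 scale.

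Among the scaffold genes, Pcnt was the most abundant and also among the steadiest. Pericentrin, its product, anchors gamma-tubulin complexes and is a main component of the oocyte's acentriolar organising centres. Pcnt was at 25.5, 25.8 and 26.6 RPKM in KO and at 28.0, 26.2 and 23.9 RPKM in WT (chromosome 10, 76351263 to 76442786, minus strand), from 11741 to 14007 reads. The KO libraries lay inside the WT range, with a 95% interval of -0.18 to 0.17 for the log2 change. Pcnt shares 379 exon bases with 1700094J05Rik on the opposite strand and 115 with AC141477.1 on its own strand. Cep192, which recruits the mitotic kinases Aurka and Plk1 as well as Plk4 in human cells, was at 3.28, 4.51 and 4.58 RPKM in KO and at 4.36, 4.34 and 3.89 RPKM in WT (chromosome 18, 67800107 to 67885170, plus strand). Its groups overlapped (log2 change -0.03, 95% interval -0.31 to 0.25). Cep192 shares chromosome 18 with Rttn, 21.2 Mb away.

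Cep152 and Cep63 bind each other and form a ring around the base of the parent centriole. Cep152, the other docking protein for Plk4, was at 2.31, 3.22 and 3.32 RPKM in KO and at 3.31, 3.23 and 2.48 RPKM in WT (chromosome 2, 125563088 to 125625113, minus strand; log2 change -0.02, 95% interval -0.35 to 0.30). In each genotype 1 library was lower than the other two, KO replicate 1 and WT replicate 3. Cep63 was at 2.69, 2.92 and 2.65 RPKM in KO and at 2.36, 2.63 and 2.47 RPKM in WT (chromosome 9, 102584588 to 102626534, minus strand). All KO values lay above all WT values by a small margin, with a change of 0.11 ± 0.09 on the log2 scale (SE; adjusted p = 0.57; 95% interval -0.11 to 0.32). Cep63 shares 239 exon bases with Anapc13 on the opposite strand, and it lies on the chromosome of Khdc3, 29.5 Mb away.

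Counting the groups that did not overlap, 3 of the 10 genes were separated (Rttn with KO below WT, Plk4 and Cep63 with KO above WT), beside 25.8% of all tested genes (12.2% with KO below and 13.5% with KO above). For the 9 genes other than Rttn, the 95% intervals together ran from -0.45 to 0.32 on the log2 scale, or folds of 0.731 to 1.25, so a fall as large as that of Rttn lies outside each of them. Summed over these 9, the level was 98.6, 107 and 111 RPKM in KO replicates 1, 2 and 3 and 109, 108 and 103 RPKM in WT replicates 1, 2 and 3. With Rttn included the sums were 101, 110 and 114 RPKM in KO and 131, 129 and 120 RPKM in WT. The variation coefficient of the 9 genes over the 6 libraries was 5.14% to 17.9%, beside a median of 11.9% for all tested genes.

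**Figure D2:**
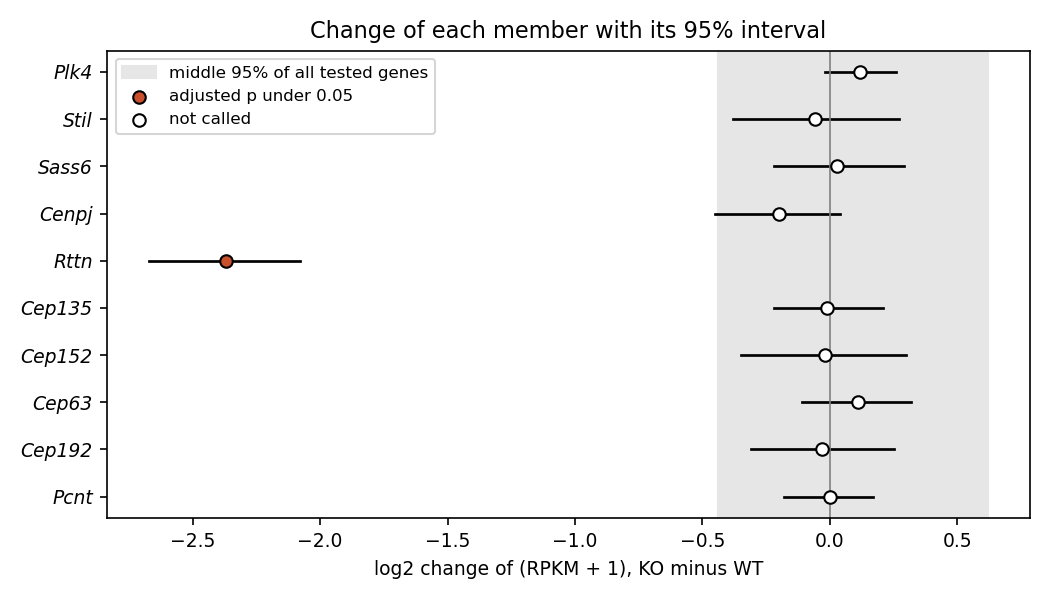
Log2 change of RPKM + 1, KO minus WT, for each gene (points) with its 95% interval from limma (lines), and the middle 95% of all tested genes in grey (-0.44 to 0.62). The interval of Rttn lies at -2.67 to -2.08, and the intervals of the other 9 genes all include 0.

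Ordered by level in RPKM, the genes fell into an upper and a lower set. In KO the order of the means was Plk4, Pcnt, Cenpj, Cep135, Cep192, Rttn, Cep152, Cep63, Sass6 and Stil, and in WT it was Plk4, Cenpj, Pcnt, Rttn, Cep135, Cep192, Cep152, Cep63, Sass6 and Stil. Rttn thus ranked 6 of 10 in KO and 4 of 10 in WT. In KO its range overlapped those of Cep192, Cep152, Cep63 and Sass6, whereas in WT it overlapped none of the others. Cenpj and Pcnt overlapped each other in both genotypes, as did Cep152 with Cep63 and Cep63 with Sass6. Sass6 and Stil overlapped in WT and not in KO, where Sass6 was the higher. The highest mean was 16.6 times the lowest in KO and 14.3 times in WT. In WT, 4 of the 10 genes were above the median mean level of tested genes (6.91 RPKM) and 6 below it. The level of Rttn relative to the other genes depends on the gene length used, and the deposited values correspond to 7268 bases. The same reads set over the 12075 exon bases of GENCODE M21 would give means of 1.86 RPKM in KO and 12.2 RPKM in WT. Reads on the further exon bases of that model are not known, so neither its levels nor its ratio between genotypes was measured.

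The promoters of the 3 genes that stayed highest in both genotypes are shown because their transcripts are the ones most abundant in a cell without centrioles. The windows are the 250 bases before the RefSeq start (GRCm38.p6), 5′ to 3′ on the gene's strand: Plk4 at chr3:40799701-40799950 (plus), Cenpj at chr14:56571847-56572096 (minus) and Pcnt at chr10:76442913-76443162 (minus). Capitals mark matches, on either strand, to the E2F core GCGGGAA, the ETS core CCGGAAG, the CHR element TTTGAA, the CCAAT box and the TATA box TATAAA, a set of 5 chosen after the levels were known. No marked matches overlap each other. The Cenpj window lies inside the gene coordinates given above, because GENCODE M21 puts the start at 56575425, upstream of the RefSeq start.
Plk4: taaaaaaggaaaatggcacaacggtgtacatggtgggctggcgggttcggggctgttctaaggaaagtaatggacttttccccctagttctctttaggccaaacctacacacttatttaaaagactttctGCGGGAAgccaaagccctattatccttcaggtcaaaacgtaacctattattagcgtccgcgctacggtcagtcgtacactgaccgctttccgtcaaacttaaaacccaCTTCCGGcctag
Cenpj: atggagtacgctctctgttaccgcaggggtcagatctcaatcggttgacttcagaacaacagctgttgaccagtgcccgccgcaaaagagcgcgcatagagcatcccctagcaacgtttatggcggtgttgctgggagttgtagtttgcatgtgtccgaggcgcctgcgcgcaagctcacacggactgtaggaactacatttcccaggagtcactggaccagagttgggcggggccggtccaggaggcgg
Pcnt: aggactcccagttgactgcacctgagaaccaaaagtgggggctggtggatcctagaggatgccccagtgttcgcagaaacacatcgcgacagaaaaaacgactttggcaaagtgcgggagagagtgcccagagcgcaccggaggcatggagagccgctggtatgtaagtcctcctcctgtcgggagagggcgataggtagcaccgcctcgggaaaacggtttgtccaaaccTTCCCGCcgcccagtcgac

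The E2F core starts 120 bases before the start of Plk4 and 19 bases before that of Pcnt, and the ETS core starts 12 bases before the start of Plk4. Windows were found for 8 of the 10 genes, all but Rttn and Cep192. The E2F core was in 3 of the 8 (Plk4, Cep152 and Pcnt) and in 3.82% of 32851 promoter windows of the same length. The CCAAT box was in 3 of 8 (Stil, Cep152 and Cep135) and 33.8% of windows, the CHR element in Sass6 and 16.0%, the ETS core in Plk4 and 6.91%, and the TATA box in none of the 8 and 12.4%. These are matches of letters and not measured binding.

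In the wider centrosome the share of genes called was near that of all tested genes. Of 70 further genes in 3 lists, 58 were tested and 1 was called (1.72%, beside 2.74% of all tested genes): Nek2, a kinase that releases the linker between a pair of centrosomes, which rose in KO. Of 26 other genes of centriole assembly and length control, 23 were in the table, 19 were tested and none was called by limma. With limma voom on recovered reads, which covered 17 of the 19 (not Cep120 or Cep76), none was called either. At an unadjusted p under 0.05 there were 0 of the 19, beside 19.0% of all tested genes. The median log2 change of the 19 was -0.01, with 9 positive and 10 negative. Cetn2, a centrin, was the highest of them at 69.1 ± 6.24 RPKM in KO and 64.9 ± 4.12 RPKM in WT (SD, n = 3 each). Cetn1, the testis centrin, was the lowest at 0.0592 RPKM in KO and 0.0672 RPKM in WT. Its reads may be shared with Cetn2, which it closely resembles, but such sharing was not tested. The 2 with the smallest p were Cetn3 (log2 change 0.17, adjusted p = 0.30) and Cep120, which acts with Cenpj (log2 change -0.13, adjusted p = 0.42).

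Among 28 other pericentriolar and microtubule nucleation genes, 26 were tested and none was called (2 at an unadjusted p under 0.05, beside 19.0% of all tested genes, and none called with voom), with a median log2 change of 0.00. Tacc3, a spindle protein, was the highest at 419 ± 20.6 RPKM in KO and 424 ± 19.0 RPKM in WT, and Tubgcp6, of the gamma-tubulin ring, was the lowest at 0.230 RPKM in KO and 0.177 RPKM in WT. Pcm1, which encodes the scaffold of centriolar satellites, had the smallest p, with 14.4, 13.2 and 12.4 RPKM in KO replicates 1, 2 and 3, against 6.38, 12.2 and 5.26 RPKM in WT replicates 1, 2 and 3 (log2 change 0.76, adjusted p = 0.15). WT replicate 2 was close to the KO level, and without it Pcm1 was called (log2 change 1.08, adjusted p = 0.0058). Summed theca and luteal markers were also high in that library, at 131.6 RPKM. The sums were 29.9 and 23.8 RPKM in WT replicates 1 and 3 and 102 to 125 RPKM in KO. Most of the sum was Hsd3b1, both in WT replicate 2 (99.7 RPKM) and in KO (88.4 to 99.3 RPKM). Among WT libraries Cyp11a1, Lhcgr and Star were also highest in replicate 2. In every KO library Cyp11a1 and Lhcgr were above WT replicates 1 and 3. Star was at 0.595, 2.10 and 0.393 RPKM in KO replicates 1, 2 and 3, against 0.856 and 0.427 RPKM in WT replicates 1 and 3. Cyp17a1 was at 2.01 RPKM in WT replicate 2 and 3.04 RPKM in WT replicate 1. In KO replicates 1, 2 and 3 Cyp17a1 was at 2.75, 0.0229 and 5.82 RPKM. Insl3 was under 1 RPKM in all libraries. The part of theca and luteal cells in the level of Pcm1 was not tested. Nedd1, which brings the gamma-tubulin complex to the spindle, was at 69.0 ± 2.33 RPKM in KO and 61.5 ± 3.88 RPKM in WT (adjusted p = 0.24).

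**Figure D3:**
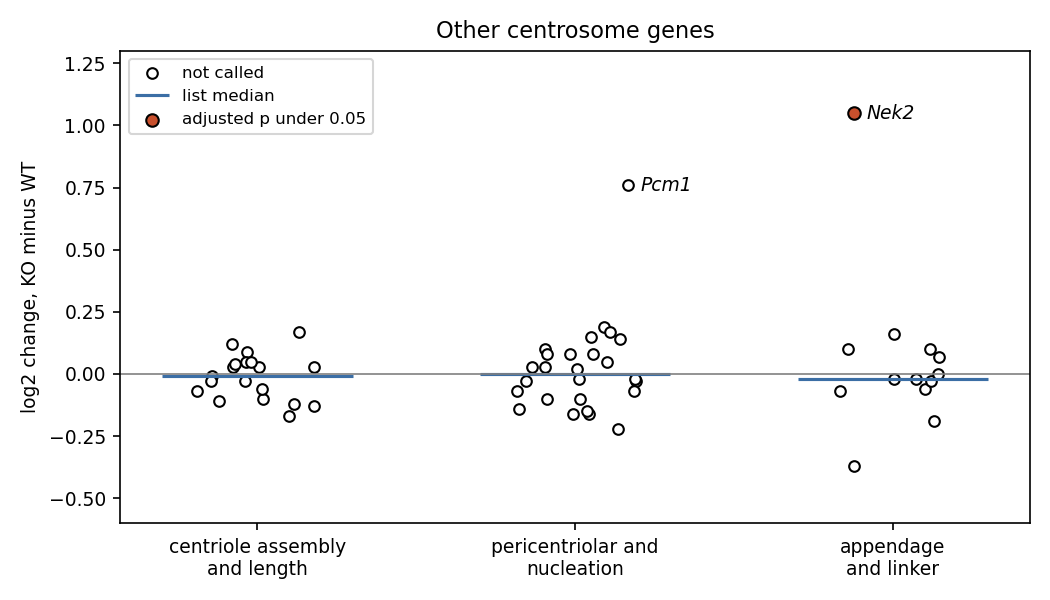
Log2 change of RPKM + 1, KO minus WT, of each tested gene in 3 lists of other centrosome genes, with 1 point per gene and a bar at the list median. Medians lie at -0.01, 0.00 and -0.02, and Nek2 at 1.05 is the 1 called gene.

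Of 16 centriole appendage and linker genes, 13 were tested, with a median log2 change of -0.02, and Nek2 was called. At an unadjusted p under 0.05 there were 3 of the 13, beside 19.0% of all tested genes. The others were Fbf1 and Cep83, both of the distal appendages, at log2 changes of -0.37 (adjusted p = 0.11) and -0.19 (adjusted p = 0.22), named after their values were seen. The level of Nek2 was 55.4, 61.3 and 61.0 RPKM in KO replicates 1, 2 and 3, against 28.6, 29.5 and 26.4 RPKM in WT replicates 1, 2 and 3. Every KO value was above every WT value, and Nek2 rose by 1.05 ± 0.07 on the log2 scale (SE; adjusted p = 0.00031 from limma). It was the highest of its list in both genotypes, while Crocc, encoding the linker filament rootletin, was the lowest at 0.177 RPKM in KO and 0.254 RPKM in WT.

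Both called genes lay beside other called genes. Within 1 Mb of Rttn, 2 genes were tested and 1 was called, Socs6, a suppressor of cytokine signalling, whose start is 0.044 Mb before that of Rttn on the opposite strand. Socs6 moved the other way: it was at 15.0, 15.0 and 16.1 RPKM in KO and at 9.42, 9.10 and 8.10 RPKM in WT (log2 change 0.73 ± 0.08, SE; limma, adjusted p = 0.0039). The other, Cd226, was at 2.12 ± 0.164 RPKM in KO and 2.49 ± 0.0822 RPKM in WT (adjusted p = 0.38). Within 5 Mb of Rttn, a distance chosen after the values were seen, 4 of 12 tested genes were called, beside 2.74% of all tested genes: Tshz1, Fbxo15 and Socs6 higher in KO, with log2 changes of 0.77, 0.77 and 0.73, and Cyb5a lower by -0.39. The calls of Cyb5a and Fbxo15 each held in 1 of 6 fits that left out a library (adjusted p up to 0.087 and 0.072). With no filter on low genes both calls were lost (adjusted p = 0.084 and 0.10), and with a replicate block that of Cyb5a was lost (adjusted p = 0.055). The annotated genes of chromosome 18 end 1.62 Mb after the start of Rttn.

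**Figure D4:**
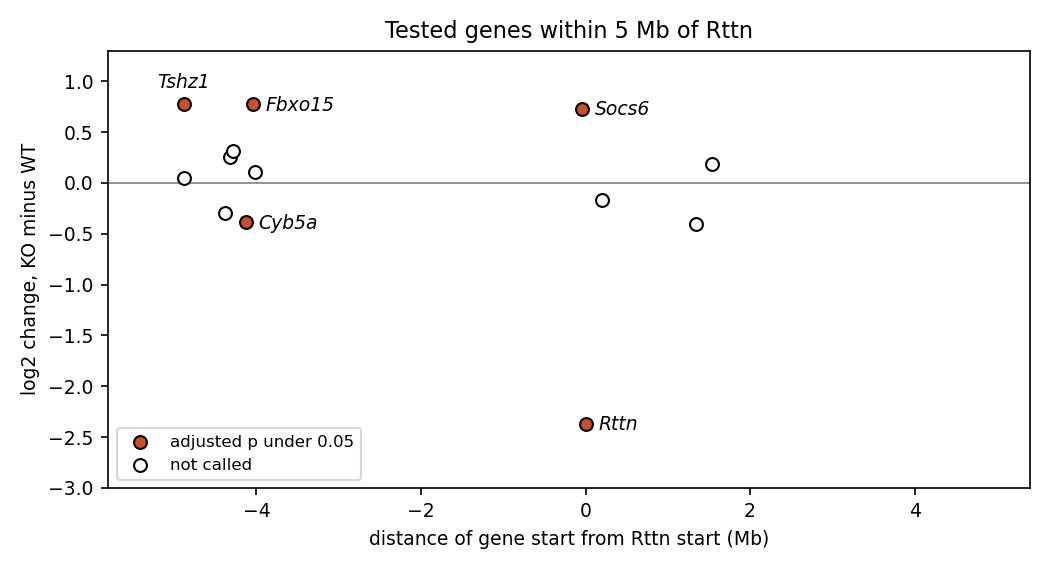
Log2 change of RPKM + 1, KO minus WT, of the tested genes within 5 Mb of Rttn by the distance of their start from the start of Rttn. Rttn at -2.37 has the largest change, and Socs6, 0.044 Mb away, lies at 0.73.

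Around Nek2 (chromosome 1, 191821444 to 191833050, plus strand), 3 of 16 tested genes within 1 Mb and 4 of 27 within 5 Mb were called, beside 2.74% of all tested genes. Batf3, a transcription factor, fell to 0.896 ± 0.295 RPKM in KO, against 11.1 ± 1.18 RPKM in WT. Kcnh1, a potassium channel, rose to 42.4 ± 0.435 RPKM in KO, against 11.1 ± 0.618 RPKM in WT, and Ppp2r5a, a regulatory subunit of protein phosphatase 2A, rose to 5.36 ± 0.208 RPKM in KO, against 3.08 ± 0.253 RPKM in WT (SD, n = 3 each). The fourth within 5 Mb, Esrrg, an orphan nuclear receptor, fell to 2.53 ± 0.315 RPKM in KO, against 5.11 ± 0.462 RPKM in WT (adjusted p = 0.01, limma). The call of Ppp2r5a was lost without KO replicate 2 (adjusted p = 0.053).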

How the data were processed

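The authors deposited 1 table of RPKM values per gene symbol and library, made for the mouse build GRCm38.p6 with featureCounts 1.6.2, STAR 2.6.0c and FastQC 0.11.7 among the tools that the submitters' processing notes name. Strand setting and annotation are not given in the sources used here; per the labels' protocols the library kit keeps strand. Columns were matched to samples by the number in their description. The 10 genes, the lists and the tests were chosen with earlier results of these data known. Genes at 1 RPKM or more in at least 3 of 6 libraries were tested as log2(RPKM + 1), a scale that understates the change of low genes, with limma 3.58.1 in R 4.3.3 (trended prior, genotype only) and called at an adjusted p under 0.05.

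Library totals and reads were recovered with exon lengths from GENCODE M21: of 19630 matched genes, 92.4% came out whole, within 0.01 of a read in each library. Rttn was not among them, and 7268 bases, the shortest length at which its values are whole, was taken instead; a multiple of it would scale its reads alike in all libraries. The labels name no batch. No libraries of a genotype were duplicates within sampling error (chi-square over degrees of freedom at least 13.9). The fit was tested on simulated data with the same dispersion for every gene and library, which does not cover a library set apart like KO replicate 1. Named genes are the 10 members, Khdc3, in each wider list the called genes (or the 2 with the smallest p) and the highest and lowest in WT, and called neighbours within 1 Mb of Rttn. Nek2's neighbours, the 5 Mb distance, the motifs, Cd226, Fbf1, Cep83, the single cell type markers named and the genes that overlap members were added after values were seen. Of the other marker lists, endothelial (0 of 3 tested called), leukocyte (0 of 2), erythroid (0 of 3), theca and luteal (0 of 4) and oocyte (0 of 15) markers held no called gene. Alternatives were other pseudocounts, filters and scalings, a replicate block, library weights, a robust prior, each library left out, and limma voom on recovered reads. Figures were drawn with matplotlib 3.10.9.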

Additional observations from a re-analysis of the deposited data

How the results depend on the processing

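Rttn was called in all 16 alternatives, with log2 changes of -2.70 to -2.28 (adjusted p up to 0.0021) and -2.49 to -2.28 with each library left out, and it was the 1 member called in each. None of the other 9 members was called in any alternative that tested it; a filter of RPKM 5 left out Sass6, Stil, Cep152, Cep192 and Cep63. Cenpj ran from -0.30 to -0.09 with each library left out. The changes near 0 took either sign: with library weights Cep152 was at 0.03, Cep192 at 0.04 and Cep135 at 0.03, with voom Pcnt was at 0.00, and with each library left out Sass6 ran from -0.05 to 0.09, Stil from -0.17 to 0.05, Cep152 from -0.12 to 0.10, Cep192 from -0.10 to 0.09, Pcnt from -0.06 to 0.05 and Cep135 from -0.06 to 0.04. The count over all genes, 336, was 94 with no filter, 222 with a filter of RPKM 5, 662 with library weights and 151 to 289 with each library left out (152 without KO replicate 2, 151 without KO replicate 3, 195 without WT replicate 2, 161 without WT replicate 3); the cause was not tested. The pericentriolar list held 0 to 1 called genes with each library left out, and Nek2 was called in all 16 alternatives. Over all tested genes, replicate numbers did not clearly pair the libraries (correlations of deviations -0.016, 0.213 and -0.034). Here 2 of 6 libraries correlated best with their own number. Summed erythroid markers were highest in replicate 1 of both genotypes, at 71.6 RPKM in KO and 73.2 RPKM in WT. Their sums elsewhere were 8.88 to 18.3 RPKM. Granulosa and cumulus sums were highest in KO replicate 3 (417 RPKM) and lowest in WT replicate 3 (138 RPKM). Whether libraries of a number were paired cannot be told from these values. With a replicate block 320 genes and the same 1 member were called (Rttn -2.37, limma, adjusted p = 0.00081). Voom had no reads for Socs6, Cd226, Tshz1, Cyb5a, Fbxo15, Cep120 or Cep76. The lowest members, Stil and Sass6, rested on 382 to 671 reads, and the part of depth in their spread was not tested.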
